A study of Mus musculus with 14 samples.

Results

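The 10 genes described here, Ldha, Slc16a1, Hk1, Pdgfra, Acot7, Oat, Mgst1, Igfbp4, Smad3 and Rest, are ones that the β-cell normally keeps low. They were chosen by name, and each was read from the transcript cluster (the array's unit of measurement for a gene) annotated to it, taking the cluster with the highest mean over all arrays where a gene had several. All 10 had a value, out of 19938 genes with one. Islets of untreated mice aged 11 weeks, of a C57BL/6 and NMRI (1:1) background, had been hybridised to 14 Affymetrix Mouse Gene 1.0 ST arrays. The control group has 5 arrays. The Pdx-1+/- group has 4 arrays from mice that carry the Pdx-1-tTA allele, which per the labels makes them haploinsufficient for Pdx-1. The IKK2-CApdx-1 group, here IKK2-CA, has 5 arrays from diabetic mice with constitutively active IKK2 in β-cells through the same Pdx-1-tTA driver, so both mutant groups carry the driver allele. The labels do not say whether the controls carry a transgene, or whether each array is a separate mouse. The p-values therefore measure the spread between these samples, which may be technical.

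A β-cell couples insulin release to the oxidation of glucose, and it does so partly by not expressing some genes that most other tissues express. With little lactate dehydrogenase A (Ldha) and little of the monocarboxylate carrier MCT1 (Slc16a1), pyruvate goes to the mitochondria, and lactate or pyruvate arriving from exercising muscle does not trigger insulin release. With little of the high-affinity hexokinase 1 (Hk1), glucose phosphorylation can follow blood glucose, and the absence of the neuronal repressor REST allows expression of a set of exocytosis genes that β-cells share with neurons.

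The sequences of most use here are the promoters of the lactate pair, since both hold an E-box, and the microRNAs that are known to repress Slc16a1 in mouse β-cells. The promoter windows run from 250 bases before to 50 after the annotated start (RefSeq, GRCm38.p6, sense strand). Capitals mark every match on either strand to CACGTG (an E-box), to a loose NF-κB motif (GGG, any 5 bases, CC) and to TGACGTCA (a cyclic AMP response element). The Slc16a1 window is chr3:104638414-104638713 on the + strand, with 1 CACGTG match and 1 match to the NF-κB motif, and the Ldha window is chr7:46845554-46845853 on the + strand, with 2 CACGTG matches, 1 NF-κB motif match and 1 TGACGTCA match.
Slc16a1 promoter: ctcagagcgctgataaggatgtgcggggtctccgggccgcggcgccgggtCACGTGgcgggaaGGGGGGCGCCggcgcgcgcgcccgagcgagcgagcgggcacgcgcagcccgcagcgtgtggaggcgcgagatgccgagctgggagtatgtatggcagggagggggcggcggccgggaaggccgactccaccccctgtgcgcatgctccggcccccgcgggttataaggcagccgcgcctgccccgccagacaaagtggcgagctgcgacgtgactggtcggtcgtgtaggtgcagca
Ldha promoter: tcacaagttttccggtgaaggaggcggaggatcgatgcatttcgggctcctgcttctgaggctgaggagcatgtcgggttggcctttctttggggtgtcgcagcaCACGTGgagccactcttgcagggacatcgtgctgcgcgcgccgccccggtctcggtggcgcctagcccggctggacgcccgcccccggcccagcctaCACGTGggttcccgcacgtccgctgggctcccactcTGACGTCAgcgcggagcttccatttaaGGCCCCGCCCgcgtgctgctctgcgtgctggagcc
Promoter windows were found for 9 of the 10 genes, all but Rest. Over all 32851 windows of 27025 genes, CACGTG occurred in 7.15%, the NF-κB motif in 50.8%, TGACGTCA in 1.79% and TAATTA, the core recognised by homeodomain factors such as PDX1, in 5.29%. Among the 9 genes, CACGTG was found for Slc16a1 and Ldha only, TGACGTCA for Ldha only, the NF-κB motif for 7 (all but Acot7 and Oat) and TAATTA for none. These 9 genes have 12 windows, and a gene was counted if any of its windows held a match. The percentages are per window, so the counts per gene cannot be set directly against them. A match is a string of letters and not evidence of binding.

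The microRNAs of the miR-29 family target Slc16a1 and share 1 seed (bases 2 to 8, in capitals; RefSeq). The miR-29a-3p sequence lies at chr6:31062673-31062694 on the - strand, miR-29c-3p at chr1:195037600-195037621 on the + strand, and miR-29b-3p is encoded at both chr1:195037091-195037113 on the + strand and chr6:31063025-31063047 on the - strand.
mmu-miR-29a-3p: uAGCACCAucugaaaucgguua
mmu-miR-29b-3p: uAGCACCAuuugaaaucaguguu
mmu-miR-29c-3p: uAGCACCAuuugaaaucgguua
The array holds probes for precursors of this family, which do not measure the mature microRNA. The Mir29a cluster read between 3.17 and 3.49 and the Mir29b-1 cluster between 2.63 and 2.87 on the 14 arrays, so the family's level in these islets was not analysed here.

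Signals are log2 values, so that 1 unit is a 2-fold difference, and they compare the same gene between arrays but not one gene with another. Array medians lay between 6.45 and 6.55. The labelled tissue was checked against marker genes: Ins2 (insulin) read 12.31 to 12.68 and Sst (somatostatin) 11.61 to 12.78, but the acinar enzyme gene Cpa1 also read 13.61 to 13.71, near the top of every array's range, so the preparations held exocrine RNA too. The arrays measured whole islets, in which fewer cells of a type and less RNA per cell cannot be told apart, and they cannot show in which cell type a transcript lay. That the 10 genes are low in β-cells is therefore background and was not testable here. On 3 arrays, genes of other tissues stood out. Pdx-1+/- array 4 read 9.16 for the intestinal gene Sis and 9.09 for the intestinal gene Fabp2, control array 3 read 6.05 and 6.58, and the other 12 arrays read at most 3.45 and 3.91. IKK2-CA array 5 read 10.60 for the adipocyte gene Adipoq and 9.34 for Plin1, against at most 7.38 and 6.80 elsewhere. Where leaving all 3 out ended a call below, that is stated, and for some other results the value without them is given too. A difference given with 1 value only may also have moved without them.

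None of the 10 genes differed between genotypes at an adjusted p under 0.05 (limma, Benjamini-Hochberg over 19938 genes) in any of the 3 comparisons. For IKK2-CA against control, where 2.25% of all genes passed, Rest and Ldha alone had an unadjusted p under 0.05, both with a higher mean in IKK2-CA islets, beside 6.2% of all genes with such a p and a higher mean. For Pdx-1+/- against control, where 0.0953% of all genes passed, Smad3 alone had an unadjusted p under 0.05, again with a higher mean, beside 1.23% of all genes. For IKK2-CA against Pdx-1+/-, where 0.0752% of all genes passed, no member had an unadjusted p under 0.05, beside 7.02% of all genes in either direction. The mean was higher in IKK2-CA than in control islets for 8 of the 10 (46.4% of all genes), with a median difference of 0.13 log2 beside -0.012 over all genes. The corresponding counts were 6 of 10 (48.2% of all genes; median 0.10, all genes -0.0049) for Pdx-1+/- against control and 7 of 10 (45% of all genes; median 0.09, all genes -0.015) for IKK2-CA against Pdx-1+/-. These counts and medians take Hk1 from cluster 10414661, and whether that cluster measures Hk1 is uncertain. The other Hk1 cluster, 10369541, differed by -0.07 log2 for IKK2-CA against control and 0.02 log2 for Pdx-1+/- against control. For IKK2-CA against Pdx-1+/- it differed by -0.09 log2. Read from cluster 10369541, Hk1 would not count as higher in either IKK2-CA comparison. In each comparison the arrays of both groups overlapped for all 10 genes, while 4.2%, 1.88% and 2.43% of all genes had groups that did not overlap, in the same order. The comparisons with control share its 5 arrays, so their values are given side by side and not as separate support for each other.

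**Figure D1:**
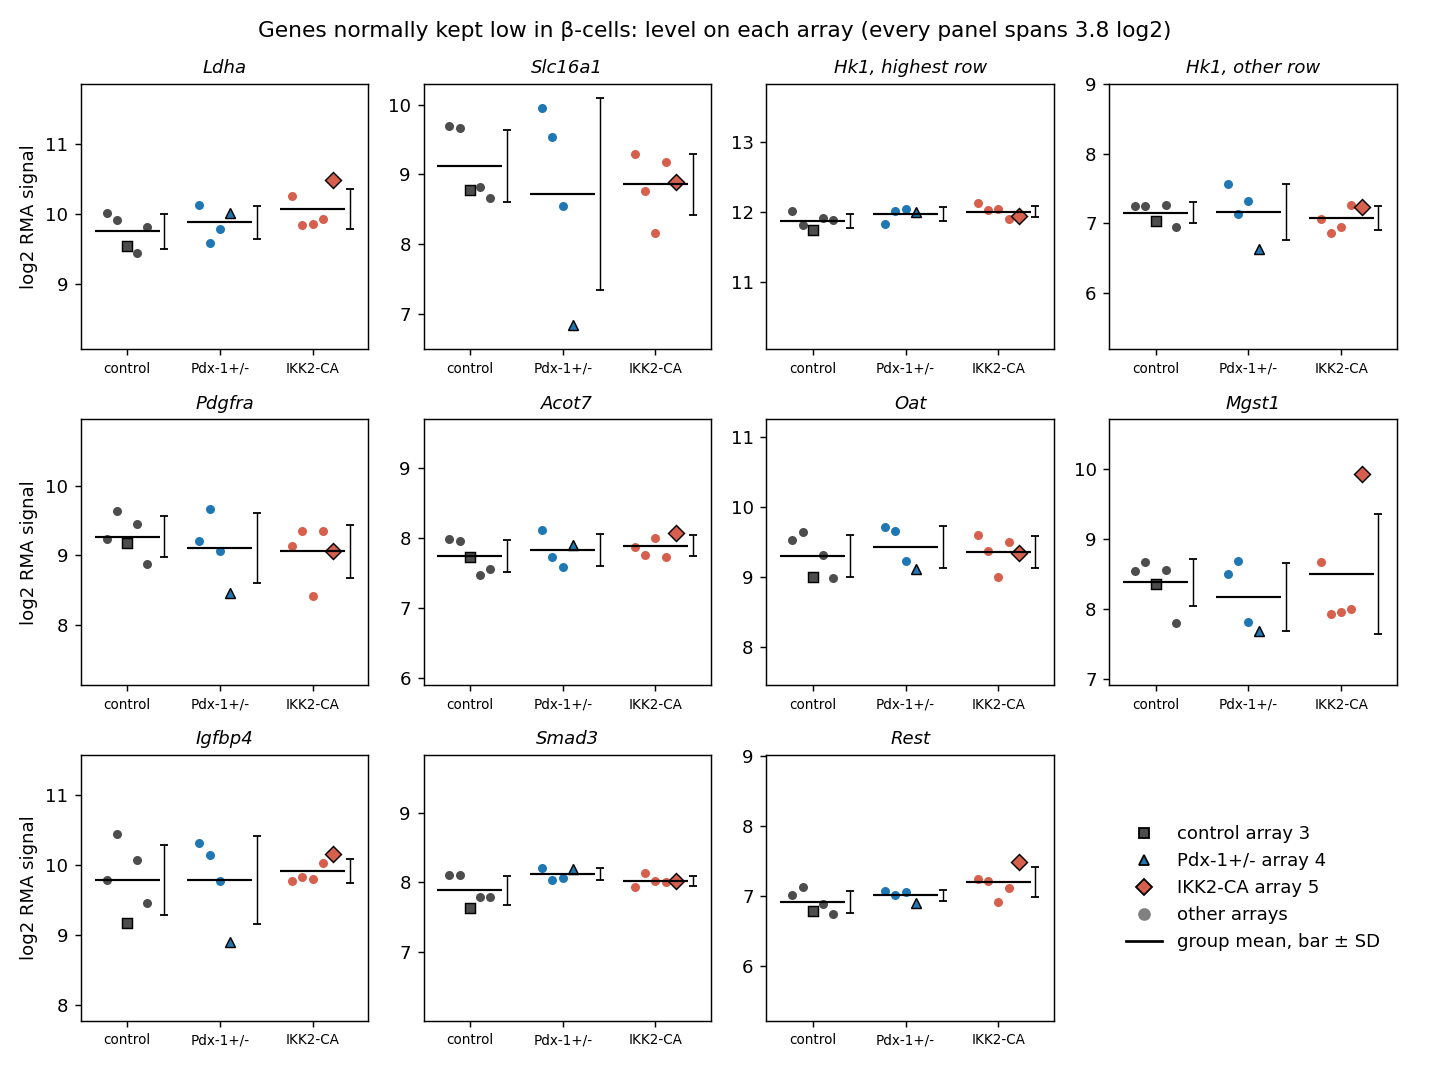
Log2 RMA signal of each of the 10 genes on each array (points), by genotype, with the group mean (line) and ± SD (bar beside it); Hk1 is drawn for both of its clusters, and all panels span the same log2 range. The groups overlap in every panel, and the low Slc16a1 value of 6.85 on Pdx-1+/- array 4 and the high Mgst1 value of 9.93 on IKK2-CA array 5 stand apart.

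**Figure D2:**
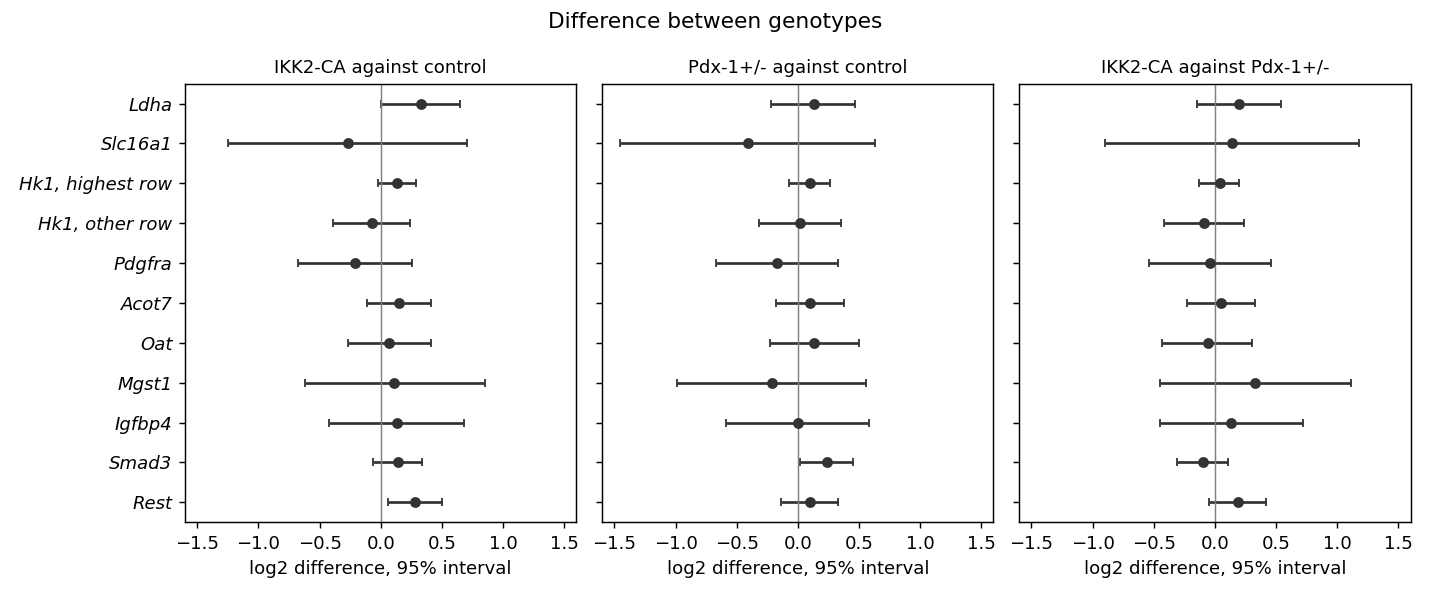
Log2 difference between genotypes for each gene (point) with its 95% interval from limma (bar), in the 3 comparisons. The intervals of Ldha and Rest in IKK2-CA against control and of Smad3 in Pdx-1+/- against control lie at or above 0, and those of Slc16a1 and Mgst1 are the widest.

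Ldha (cluster 10553301) encodes the lactate dehydrogenase subunit that favours the conversion of pyruvate to lactate. The control arrays read 10.02, 9.92, 9.54, 9.44 and 9.81. The Pdx-1+/- arrays read 10.13, 9.59, 9.78 and 10.01, and the IKK2-CA arrays 10.26, 9.84, 9.85, 9.93 and 10.49. IKK2-CA arrays 1 and 5 and Pdx-1+/- array 1 lay above every control array, and the others fell within the control range. The group means followed the order IKK2-CA (10.07 ± 0.29, SD, n = 5), Pdx-1+/- (9.88 ± 0.24, n = 4), control (9.75 ± 0.25, n = 5), with neighbouring means closer than the spread. Ldha was 0.33 log2 higher in IKK2-CA than in control islets (SE 0.15, 95% interval 0.00 to 0.65; 1.26-fold; unadjusted p = 0.0484 and adjusted p = 0.314 by limma), and 0.17 log2 higher without the 3 arrays that carry intestinal or adipocyte signal. The difference of Pdx-1+/- from control was 0.13 log2 (SE 0.16) and that of IKK2-CA from Pdx-1+/- was 0.20 log2 (SE 0.16), neither past the threshold. Without the 3 arrays the Pdx-1+/- and control means were 9.83 and 9.80. After removal of group means, Ldha went against the β-cell markers described further on (r = -0.59, Spearman's rho -0.51). Without control array 2 and IKK2-CA array 5, r was -0.40. The part of these markers in the Ldha values was not tested.

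Slc16a1 (cluster 10495035) encodes MCT1, which carries lactate and pyruvate across the plasma membrane. Its values were 9.69, 9.67, 8.78, 8.82 and 8.67 in control islets. They were 9.95, 9.53, 8.55 and 6.85 in Pdx-1+/- islets and 9.29, 8.77, 8.16, 9.18 and 8.89 in IKK2-CA islets. Pdx-1+/- islets held both the highest and the lowest of the 14 values, a range of 3.10 log2. The mean was 9.12 ± 0.51 in control, 8.72 ± 1.38 in Pdx-1+/- and 8.86 ± 0.44 (SD) in IKK2-CA islets. IKK2-CA islets differed from control by -0.27 log2 (SE 0.46, 95% interval -1.25 to 0.71, adjusted p = 0.864 by limma), an interval that reaches from a level more than 2-fold lower to one well above control. The direction of the other comparisons turned on Pdx-1+/- array 4. Pdx-1+/- against control was -0.41 log2 (SE 0.49) with it and 0.13 log2 (SE 0.36) without the 3 arrays named above, and IKK2-CA against Pdx-1+/- was 0.14 log2 (SE 0.49) with it and -0.49 log2 (SE 0.36) without them.

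The variation of Slc16a1 between arrays went with genes of the mesothelium, the cell layer that covers abdominal organs. A list of 10 mesothelial genes (Upk3b, Msln, Wt1, Lrrn4, Muc16, Upk1b, Bnc1, Gpm6a, Nkain4 and Rspo1) was chosen after the values had been seen, so it is given as a description without a test. The mean log2 level of the list, as a deviation from its average over the 14 arrays, was 0.62, 0.68, -0.11, 0.27 and -0.13 on the control arrays, 0.85, 0.54, -0.12 and -2.32 on the Pdx-1+/- arrays, and 0.28, -0.04, -0.57, 0.26 and -0.21 on the IKK2-CA arrays. The array with the lowest Slc16a1 value and the array with the highest were also those with the lowest and highest mesothelial values. After removal of the group means, Slc16a1 correlated with that mean at r = 0.97 (Spearman's rho 0.96) over 14 arrays, and at r = 0.94 without Pdx-1+/- arrays 1 and 4. All 10 mesothelial genes were measured and none passed the threshold in a comparison (limma); their summed linear signal ran from 6421 to 11007 in control, 1328 to 12429 in Pdx-1+/- and 4491 to 8546 in IKK2-CA islets. The mesothelial gene Upk3b, for example, read 8.25 on Pdx-1+/- array 4 and 10.17 to 11.63 on the others. An array has no true 0, and no mesothelial gene can be called absent. Slc16a1 also went with Schwann cell markers (r = 0.80, rho 0.70) and against intestinal markers (r = -0.74, rho -0.48, and r = -0.40 without control array 3 and Pdx-1+/- array 4). The part of these genes in the Slc16a1 values was not tested. The 3 genes whose pattern was most like that of Slc16a1 over the 14 arrays were Cyp2s1, Scn3b and Ildr2, each at r = 0.99 after removal of group means.

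**Figure D3:**
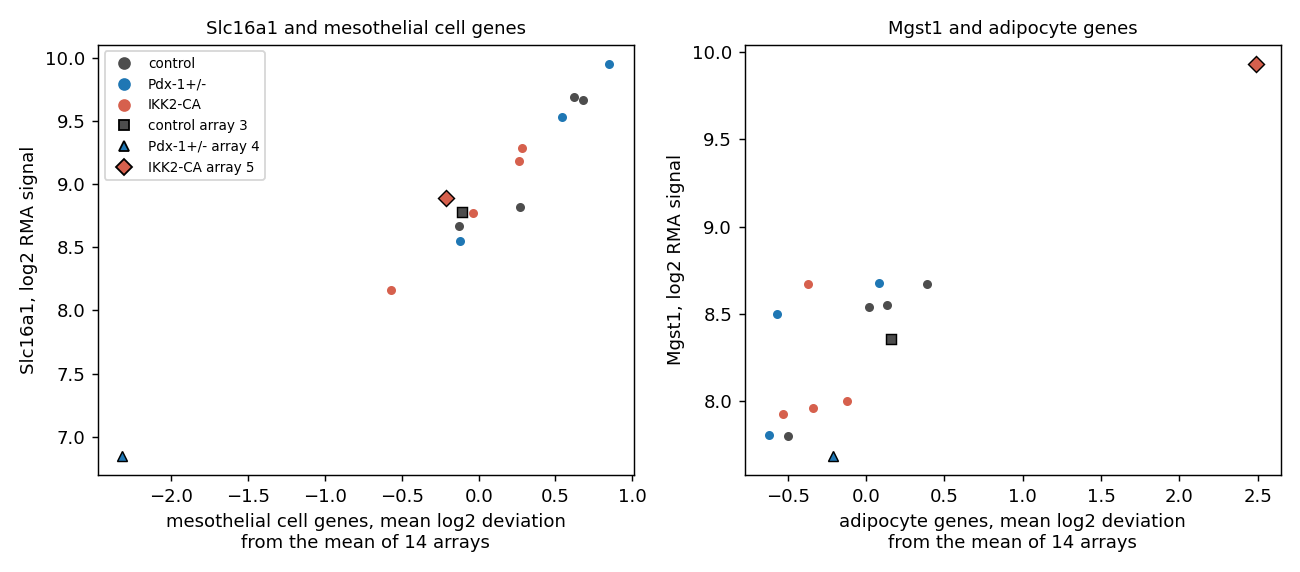
Left, Slc16a1 signal against the mean log2 deviation of 10 mesothelial genes; right, Mgst1 signal against that of 9 measured adipocyte genes; each point is an array, coloured by genotype. Slc16a1 rises with the mesothelial mean from 6.85 at -2.32 to 9.95 at 0.85, and IKK2-CA array 5 stands alone in adipocyte genes (2.49) and in Mgst1 (9.93).

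Among 17 measured genes of lactate and pyruvate handling, none passed the threshold in any comparison (limma), with median differences of 0.11 log2 for IKK2-CA and 0.06 log2 for Pdx-1+/- against control. At an unadjusted p under 0.05, 3 were higher and 1 was lower in IKK2-CA than in control islets, beside 6.2% and 9.47% of all genes. Ldhb, the other major lactate dehydrogenase subunit, was -0.22 log2 (SE 0.14) in IKK2-CA against control. Slc16a3, which encodes the lactate exporter MCT4, read 6.17 to 6.25 in control, 6.23 to 6.50 in Pdx-1+/- and 6.33 to 6.82 in IKK2-CA islets. The IKK2-CA arrays thus lay above all control arrays for Slc16a3, by 0.23 log2 in the means (SE 0.09, adjusted p = 0.218 by limma), as did 1.86% of all genes. Without IKK2-CA array 5 the difference was 0.14 log2 (SE 0.07).

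Hk1 encodes hexokinase 1, which phosphorylates glucose with high affinity, and the choice of its row decides what can be said. The array annotation names Hk1 in 18 clusters, of which 16 also name the ribosomal protein gene Rpl17 and 2 name Hk1 alone. The cluster with the highest mean, 10414661, is annotated only through the accession J05277. Across the 14 arrays it went with the mean of the 16 Rpl17 clusters at r = 0.92, and the genes most like it were Rps3a1, Rps19-ps3 and 4933402E13Rik. The other, 10369541, which is annotated through the gene's RefSeq transcripts, went with the Rpl17 mean at r = -0.42. Whether 10414661 measures Hk1 is therefore uncertain, and both clusters are given.

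Cluster 10414661 read 12.02, 11.81, 11.75, 11.92 and 11.89 in control islets. It read 11.83, 12.02, 12.04 and 12.01 in Pdx-1+/- and 12.13, 12.03, 12.04, 11.91 and 11.94 in IKK2-CA islets. All values lay within 0.38 log2, and the IKK2-CA mean was 0.13 log2 above control (SE 0.07, adjusted p = 0.407 by limma). Cluster 10369541 read 7.25, 7.25, 7.03, 7.26 and 6.95 in control, 7.57, 7.13, 7.32 and 6.63 in Pdx-1+/-, and 7.06, 6.86, 6.95, 7.26 and 7.24 in IKK2-CA islets. Here the highest and lowest values were again both in Pdx-1+/- islets, on arrays 1 and 4, and the IKK2-CA mean was on the other side of control, at -0.07 log2 (SE 0.15, 95% interval -0.39 to 0.24, adjusted p = 0.889). The genes most like this cluster over the arrays were Gucy1a1, Cdh19 and Ahr (r = 0.93 to 0.95). Of the marker lists it went most with the 5 measured Schwann cell genes (r = 0.87, rho 0.86), whose part was not tested.

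Several genes around these enzymes fell in IKK2-CA islets. Of 9 measured genes of glucose entry and phosphorylation, 2 fell in IKK2-CA against control, beside 1.56% of all genes. Slc2a2, which encodes the low-affinity glucose transporter of the β-cell, fell by 1.92 on the log2 scale (SE 0.30, adjusted p = 0.00694), and G6pc2, which encodes the islet glucose-6-phosphatase, fell by 1.16 (SE 0.19, adjusted p = 0.00828). Both are also among the β-cell markers described further on. Hk2, the insulin-regulated hexokinase, differed by 0.22 log2 (SE 0.21), or by -0.05 log2 (SE 0.16) without the 3 arrays with signal of other tissues. Of 12 measured glycolysis genes, 3 fell, beside the same 1.56% of all genes, and none rose. These were Pfkfb2, a kinase that makes the activator of phosphofructokinase (fell by 0.96, SE 0.19, adjusted p = 0.0196), Pfkm, the muscle-type phosphofructokinase (fell by 0.45, SE 0.09, adjusted p = 0.0241), and Pkm, the pyruvate kinase of most tissues (fell by 0.44, SE 0.08, adjusted p = 0.0155). Pkm read 9.24 to 9.65 in control, 9.12 to 9.18 in Pdx-1+/- and 8.81 to 9.07 in IKK2-CA islets, in 3 ranges that did not overlap. Of all genes, 2.34% lay below control without overlap in IKK2-CA and 1.4% in Pdx-1+/- islets. In IKK2-CA against Pdx-1+/- islets 0.712% did so. The Pfkm call was lost without any 1 of control arrays 3, 4 and 5 and IKK2-CA arrays 1, 3 and 5 (adjusted p up to 0.0816), and the Pfkfb2 call without control array 3, 4 or 5 or IKK2-CA array 3 (up to 0.0686). Both were also lost without the 3 arrays with signal of other tissues (adjusted p = 0.12 for Pfkm and 0.109 for Pfkfb2). None of these genes passed the threshold in Pdx-1+/- against control, where Slc2a2 differed by -1.43 log2 (SE 0.32, adjusted p = 0.188 by limma). They did not pass in IKK2-CA against Pdx-1+/- islets either, where Pkm differed by -0.21 log2 (SE 0.09, adjusted p = 0.649 by limma).

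Acot7 (cluster 10510687) encodes an acyl-CoA thioesterase that releases long-chain fatty acids, including arachidonic acid, from coenzyme A. Control arrays read 7.98, 7.95, 7.72, 7.47 and 7.56. Pdx-1+/- arrays read 8.12, 7.73, 7.58 and 7.90, and IKK2-CA arrays 7.87, 7.75, 8.00, 7.73 and 8.07. The 3 ranges lay almost on top of each other. The IKK2-CA mean was 0.15 log2 above control (SE 0.12, 95% interval -0.11 to 0.41) and the Pdx-1+/- mean 0.10 log2 above it (SE 0.13, 95% interval -0.18 to 0.38). Of 12 other measured acyl-CoA thioesterases and related genes, none passed the threshold in any comparison (limma), with a median of 0.07 log2 for IKK2-CA against control. The 1 with an unadjusted p under 0.05 there was Acot6, at -0.17 log2 (SE 0.08), beside 9.47% of all genes that were lower at such a p. The nearest genes in pattern to Acot7 were Mettl7a1, Card19 and Thoc6 (r = 0.91 to 0.95). Among the 10 genes themselves, Acot7 went most with Ldha (r = 0.70 over 14 arrays, group means removed). Of the marker lists it went most with that of B cells (r = 0.72, rho 0.73) and against that of β-cells (r = -0.67, rho -0.58), and their part in the Acot7 values was not tested.

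Oat (cluster 10568568) encodes ornithine aminotransferase, a mitochondrial enzyme that links ornithine to glutamate and proline. Its signal was 9.53, 9.64, 9.00, 9.31 and 8.99 in control islets. It was 9.72, 9.66, 9.23 and 9.12 in Pdx-1+/- and 9.60, 9.38, 9.00, 9.50 and 9.35 in IKK2-CA islets. Arrays of every genotype spanned most of the range from 8.99 to 9.72. The differences from control were 0.07 log2 in IKK2-CA (SE 0.16, 95% interval -0.27 to 0.41) and 0.13 log2 in Pdx-1+/- islets (SE 0.17, 95% interval -0.23 to 0.50). Like Slc16a1, Oat went with the mesothelial list (r = 0.77, rho 0.93, and r = 0.88 without Pdx-1+/- arrays 1 and 4), and with Slc16a1 itself (r = 0.84). Oat also went with Schwann cell markers (r = 0.73, rho 0.73, and r = 0.65 without Pdx-1+/- arrays 1 and 4). With stellate cell and fibroblast markers r was 0.52 (rho 0.40), or 0.27 without control array 3 and Pdx-1+/- array 4. The part of these genes in the Oat values was not tested. The nearest genes were Tmeff2, Hoxb2 and Cldn15 (r = 0.94 to 0.95). None of 12 measured genes of ornithine, proline and polyamine metabolism passed the threshold (limma), and Odc1, the first enzyme of polyamine synthesis, was 0.46 log2 higher in IKK2-CA than in control islets (SE 0.17, unadjusted p = 0.0176, adjusted p = 0.19 by limma). Without IKK2-CA array 5 and Pdx-1+/- array 4 it was 0.54 log2 higher (adjusted p = 0.0466), and without control array 3 as well 0.48 (adjusted p = 0.122). With all arrays, 1 gene of the list (Odc1) was higher and 1 (Arg1) lower than control in IKK2-CA islets at an unadjusted p under 0.05. Of all genes, 6.2% and 9.47% were so. Arg1 differed by -0.40 log2 (SE 0.14, adjusted p = 0.179 by limma).

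Mgst1 (cluster 10542470) encodes a microsomal glutathione transferase that detoxifies lipid peroxides. In control islets it read 8.54, 8.67, 8.36, 8.55 and 7.80. In Pdx-1+/- islets it read 8.50, 8.68, 7.81 and 7.69, and in IKK2-CA islets 8.67, 7.93, 7.96, 8.00 and 9.93. IKK2-CA array 5 lay far above all others, and 3 of the other 4 IKK2-CA arrays lay below 4 of the 5 control arrays. With all arrays the IKK2-CA mean was 0.11 log2 above control (SE 0.34, 95% interval -0.62 to 0.85). Without that array and Pdx-1+/- array 4 it was -0.24 log2 (SE 0.22), and leaving out control array 5, the lowest control, also turned the sign (-0.03 log2). The same array held the adipocyte signal: 9 of 10 listed adipocyte genes were measured, their summed linear signal was 10429 there and 1009 to 1919 on the other 13 arrays, and Mgst1 correlated with their mean at r = 0.85 (rho 0.69, group means removed), or 0.57 without IKK2-CA arrays 2 and 5. Mgst1 went against the 9 measured acinar markers as well (r = -0.88, rho -0.81, and r = -0.82 without IKK2-CA array 5 and Pdx-1+/- array 4), whose summed linear signal was lowest on IKK2-CA array 5 (65859) and 69127 to 76271 elsewhere. With the 15 macrophage and myeloid markers r was 0.72 (rho 0.56), or 0.31 without IKK2-CA arrays 4 and 5. The part of the adipocyte, acinar and macrophage genes in the Mgst1 values was not tested. Genes nearest in pattern were Pygl, Alas1 and Ramp2 (r = 0.93 to 0.94). None of 14 glutathione transferase and leukotriene genes passed the threshold (limma), with a median of 0.14 log2 for IKK2-CA against control. At an unadjusted p under 0.05, 1 was higher there, beside 6.2% of all genes. Mgst2 was at 0.20 log2 (SE 0.14) and Mgst3 at -0.02 log2 (SE 0.11).

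Pdgfra (cluster 10522503) encodes a receptor for platelet-derived growth factors that is a marker of mesenchymal cells and that young, dividing β-cells express. Control arrays read 9.24, 9.63, 9.18, 9.45 and 8.87. Pdx-1+/- arrays read 9.21, 9.67, 9.07 and 8.46, and IKK2-CA arrays 9.13, 9.35, 8.42, 9.35 and 9.06. The 2 lowest values were those of IKK2-CA array 3 and Pdx-1+/- array 4, and the remaining 12 arrays lay between 8.87 and 9.67. IKK2-CA islets differed from control by -0.21 log2 (SE 0.22, 95% interval -0.68 to 0.26, adjusted p = 0.737 by limma). Pdx-1+/- islets differed by -0.17 log2 (SE 0.23), or by 0.02 log2 without the 3 arrays named above. The values of Pdgfra went with those of the 14 measured stellate cell and fibroblast markers (r = 0.71, rho 0.69) and of the mesothelial list (r = 0.77, rho 0.75), and the nearest genes, Lama2, Lamb1 and Adamts5 (r = 0.96 to 0.98), encode proteins of the extracellular matrix or its turnover. The summed linear signal of the stellate and fibroblast markers was 16942 to 22806 in control, 12385 to 22418 in Pdx-1+/- and 15203 to 23642 in IKK2-CA islets, and their part in the Pdgfra values was not tested. None of the 6 other PDGF genes measured passed the threshold (limma), with the second receptor gene Pdgfrb at 0.22 log2 (SE 0.19) and the ligand gene Pdgfa at 0.03 log2 (SE 0.10) for IKK2-CA against control. Without the 3 arrays Pdgfrb was at 0.11 log2 (SE 0.14) and Pdgfa at 0.13 log2 (SE 0.09). At an unadjusted p under 0.05, 1 of the 6 differed in each comparison. Pdgfc was higher in IKK2-CA than in control islets (0.52 log2, SE 0.16, adjusted p = 0.117 by limma), beside 6.2% of all genes. Pdgfb was higher in IKK2-CA than in Pdx-1+/- islets (0.27 log2, SE 0.10), beside 7.02% of all genes in either direction. Pdgfrl was lower in Pdx-1+/- than in control islets (-0.32 log2, SE 0.14), beside 3.49% of all genes.

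Igfbp4 (cluster 10381096) encodes a secreted protein that binds insulin-like growth factors and limits their access to the receptor. Its control values were 9.79, 10.45, 9.17, 10.07 and 9.46. The Pdx-1+/- values were 10.32, 10.15, 9.77 and 8.90, and the IKK2-CA values 9.77, 9.83, 9.81, 10.03 and 10.16. IKK2-CA arrays lay closest together (SD 0.17, against 0.50 in control and 0.63 in Pdx-1+/- islets), a contrast in spread that was not tested, and the lowest values were those of Pdx-1+/- array 4 and control array 3, the arrays with intestinal signal. The mean was 9.79 in both control and Pdx-1+/- islets and 9.92 in IKK2-CA islets, a difference from control of 0.13 log2 (SE 0.26, 95% interval -0.42 to 0.68) that became -0.08 log2 (SE 0.18) without the 3 arrays. Igfbp4 went with the mesothelial list at r = 0.82 (rho 0.75; 0.62 without Pdx-1+/- arrays 1 and 4) and against the intestinal list at r = -0.81 (rho -0.61; -0.40 without control array 3 and Pdx-1+/- array 4), whose part was not tested, and its nearest genes were Sulf2, Emilin2 and Hoxa5 (r = 0.94 to 0.95). Igfbp4 also went with stellate cell and fibroblast markers (r = 0.78, rho 0.75, and r = 0.51 without control array 3 and Pdx-1+/- array 4). With Schwann cell markers r was 0.75 (rho 0.72). With macrophage and myeloid markers r was 0.51 (rho 0.71), or 0.87 without IKK2-CA arrays 4 and 5. The part of these markers was not tested either.

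Among 13 measured genes of the IGF system, 2 fell in IKK2-CA against control, beside 1.56% of all genes, and none rose. Igf1r, the IGF1 receptor, fell by 0.62 on the log2 scale (SE 0.11, adjusted p = 0.014), with control arrays at 9.00 to 9.06, Pdx-1+/- arrays at 8.44 to 8.86 and IKK2-CA arrays at 7.97 to 8.64. Both mutant groups thus lay below every control array for Igf1r, as 2.34% of all genes did in IKK2-CA and 1.4% in Pdx-1+/- islets, and the Pdx-1+/- difference of -0.36 log2 (SE 0.12) did not pass (adjusted p = 0.751). Pappa2, a protease that cleaves IGF-binding proteins, fell by 1.11 (SE 0.21, adjusted p = 0.0162), a call lost without control array 3 or 4 (adjusted p up to 0.0565). The ligand genes Igf1 and Igf2 were 0.24 log2 (SE 0.15) and 0.25 log2 (SE 0.32) higher in the means and did not pass. Without the 3 arrays with signal of other tissues these differences were 0.30 log2 (SE 0.10) and 0.14 log2 (SE 0.38).

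Smad3 (cluster 10594404) encodes a transcription factor that carries the TGF-β signal to the nucleus and is known to repress the insulin gene. Control arrays read 8.11, 8.11, 7.63, 7.79 and 7.79. Pdx-1+/- arrays read 8.21, 8.03, 8.06 and 8.19, and IKK2-CA arrays 7.94, 8.14, 8.02, 8.00 and 8.02. Control arrays 3, 4 and 5 lay below every mutant array and control arrays 1 and 2 lay among them. The order of the means was Pdx-1+/- (8.12 ± 0.09), IKK2-CA (8.02 ± 0.07) and control (7.89 ± 0.21, SD). Pdx-1+/- exceeded control by 0.24 log2 (SE 0.10, 95% interval 0.02 to 0.45; 1.18-fold; unadjusted p = 0.0322, adjusted p = 0.999 by limma) and IKK2-CA exceeded it by 0.14 log2 (SE 0.09, 95% interval -0.06 to 0.34). Without the 3 arrays with signal of other tissues, control array 3 being the lowest of all for Smad3, these differences were 0.15 (SE 0.11) and 0.07 log2 (SE 0.10). The nearest genes were Rapgef5, Metrnl and Cpt1a (r = 0.87 to 0.93). Smad3 went against the markers of alpha and delta cells (r = -0.53, rho -0.55, and r = -0.27 without control array 2 and Pdx-1+/- array 4). With β-cell markers r was -0.51 (rho -0.47), or -0.41 without control array 2 and IKK2-CA array 5. Smad3 went with duct cell markers (r = 0.52, rho 0.48, and r = 0.35 without control arrays 2 and 4). With B-cell markers r was 0.43 (rho 0.54), or 0.56 without IKK2-CA arrays 4 and 5. With macrophage and myeloid markers r was 0.27 (rho 0.32), or 0.52 without IKK2-CA arrays 4 and 5. The part of these markers in the Smad3 values was not tested.

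None of the 19 measured TGF-β and Smad genes passed the threshold in any comparison (limma), and 2 were higher at an unadjusted p under 0.05 for IKK2-CA against control, beside 6.2% of all genes. These were Tgfb1 and Inhba, with Inhba at 0.33 log2 (SE 0.11). Inhba was also the 1 gene with such a p in Pdx-1+/- against control (0.26 log2, SE 0.11), beside 1.23% of all genes higher. For IKK2-CA against Pdx-1+/- the 2 were Tgfb1 and the receptor gene Tgfbr1 (0.59 log2, SE 0.21), beside 7.02% of all genes in either direction. The Smad partner genes were close to control in IKK2-CA islets, with Smad2 at 0.06 log2 (SE 0.07), Smad4 at -0.03 log2 (SE 0.07) and the inhibitory Smad7 at 0.12 log2 (SE 0.11). Without the 3 arrays with signal of other tissues they were at 0.01, -0.05 and 0.06 log2. The ligand gene Tgfb1 read 7.28 to 7.68 in control, 7.42 to 7.52 in Pdx-1+/- and 7.79 to 8.92 in IKK2-CA islets. All IKK2-CA arrays lay above all others for Tgfb1, by 0.66 log2 over control (SE 0.18, adjusted p = 0.0688) and 0.67 log2 over Pdx-1+/- islets (SE 0.19, adjusted p = 0.322; 0.42 log2 and 0.50 log2 without the 3 arrays), where 1.72% of all genes lay above without overlap. The 15 macrophage and myeloid markers, cells that make this ligand too, had a summed linear signal of 6433 to 9402 in control, 7314 to 9678 in Pdx-1+/- and 6720 to 16680 in IKK2-CA islets, and their part in the Tgfb1 values was not tested.

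Rest (cluster 10522712) encodes the zinc-finger repressor that silences neuronal genes outside neurons. Control arrays read 7.02, 7.13, 6.79, 6.89 and 6.74. Pdx-1+/- arrays read 7.07, 7.02, 7.06 and 6.90, and IKK2-CA arrays 7.25, 7.22, 6.92, 7.12 and 7.49. IKK2-CA arrays 1, 2 and 5 lay above every control and every Pdx-1+/- array, array 4 lay just under the highest control array, and array 3 lay within the control range. The order of the means was IKK2-CA (7.20 ± 0.21), Pdx-1+/- (7.01 ± 0.08) and control (6.92 ± 0.16, SD). Rest was 0.28 log2 higher in IKK2-CA than in control islets (SE 0.10, 95% interval 0.06 to 0.50; 1.22-fold; unadjusted p = 0.0153, adjusted p = 0.178 by limma), and 0.18 log2 higher without the 3 arrays named above. It was 0.10 log2 higher in Pdx-1+/- than in control islets (SE 0.11) and 0.19 log2 higher in IKK2-CA than in Pdx-1+/- islets (SE 0.11). Without the 3 arrays the IKK2-CA and Pdx-1+/- means were 7.13 and 7.05. The nearest genes were Syne3, Ier5 and Trf (r = 0.92 to 0.94), and among the 10 genes Rest went most with Mgst1 (r = 0.76). Rest also went with the macrophage and myeloid markers (r = 0.65, rho 0.59, and r = 0.45 without IKK2-CA arrays 4 and 5) and with the adipocyte markers (r = 0.62, rho 0.32, and r = 0.43 without IKK2-CA arrays 2 and 5), whose medians for IKK2-CA against control were 0.26 and 0.20 log2. Their part in the Rest values was not tested.

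Of 19 measured genes known as REST targets, 3 fell in IKK2-CA against control, beside 1.56% of all genes, and none rose. Of the 19 differences, 18 lay below 0 and 1 above, beside 46.4% of all genes above 0. Their median was -0.43 log2 (all genes -0.012). Gad1, which makes the transmitter GABA, fell by 2.30 on the log2 scale (SE 0.19, adjusted p = 8.42e-05), with control arrays at 8.34 to 9.32 and IKK2-CA arrays at 6.14 to 6.96. Gjd2, which encodes a gap-junction protein that couples β-cells, fell by 1.39 (SE 0.32, adjusted p = 0.0375). Mapk8ip1, a scaffold of JNK signalling, fell by 0.43 (SE 0.10, adjusted p = 0.0423). Of the 14 fits that each left out 1 array, Gjd2 passed in 4 (those without control array 2, Pdx-1+/- array 4 or IKK2-CA array 2 or 4; adjusted p up to 0.126) and Mapk8ip1 in 3 (those without control array 2, Pdx-1+/- array 4 or IKK2-CA array 4; up to 0.138), whereas Gad1 passed in all 14. Without the 3 arrays with signal of other tissues, Gjd2 (adjusted p = 0.117) and Mapk8ip1 (0.151) did not pass, and Gad1 did (0.000127).

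The remaining REST targets did not pass. Snap25, a SNARE protein of exocytosis, differed by -0.55 log2 (SE 0.17, adjusted p = 0.12 by limma), Syp (synaptophysin) by -0.41 (SE 0.17), Celsr3 by -0.42 (SE 0.15) and Unc13a, a priming factor of secretory vesicles, by -0.43 (SE 0.19). In Pdx-1+/- against control, 1 of the 19 passed, beside 0.0953% of all genes. This was Gad1, which fell by 2.03 (SE 0.20, adjusted p = 0.000791 by limma), and the list median was -0.19 log2. Between IKK2-CA and Pdx-1+/- islets none of the 19 passed (limma), 4 were lower at an unadjusted p under 0.05 (2.69% of all genes), and Gad1 differed by -0.28 log2 (SE 0.20). All 9 measured REST corepressor genes had means below control in IKK2-CA islets (-0.25 to -0.04 log2), while 46.4% of all genes had a mean above control. None passed the threshold, with 3 lower at an unadjusted p under 0.05 (9.47% of all genes) and Rcor1 at -0.10 log2 (SE 0.09). β-cell markers moved with these genes. Of 10 measured β-cell markers, 6 fell in IKK2-CA against control (median -1.13 log2), beside 1.56% of all genes. None passed in Pdx-1+/- against control (median -0.68), beside 0.0953% of all genes. Their summed linear signal was 25581 to 35885 in control, 20755 to 26018 in Pdx-1+/- and 17649 to 26272 in IKK2-CA islets. The part of the β-cell markers in the REST target values was not tested.

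**Figure D4:**
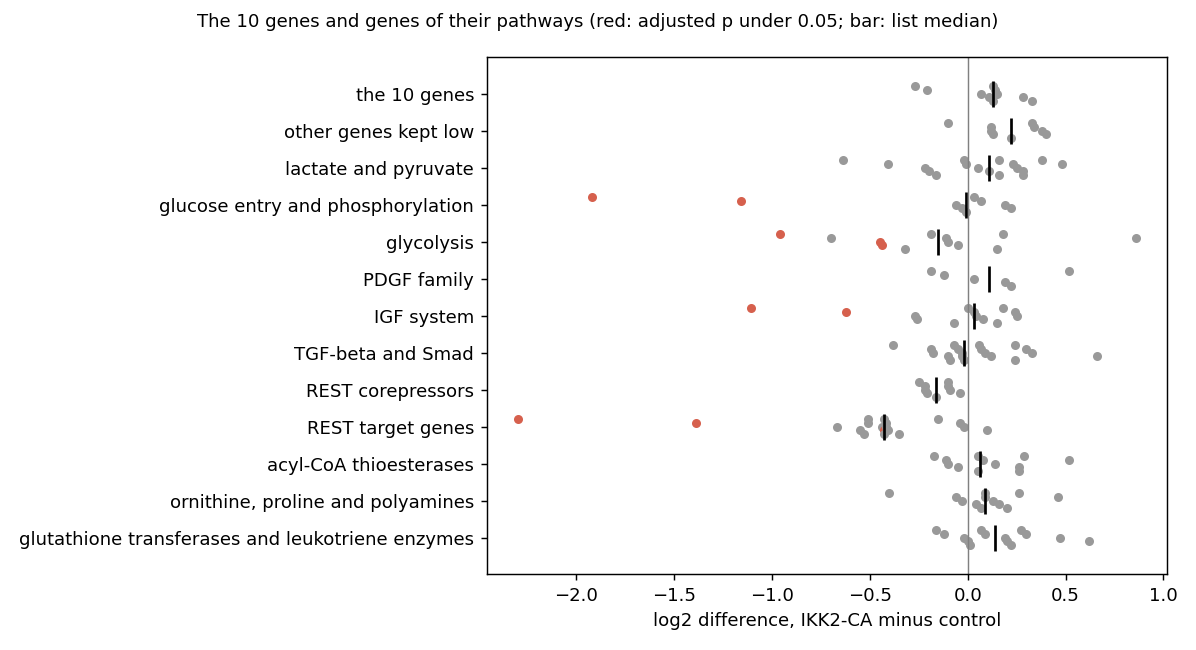
Log2 difference, IKK2-CA minus control, of each measured gene (point) in the 10 genes and 12 lists around them, with genes past an adjusted p of 0.05 in red and the list median as a bar. The 10 genes past the threshold all lie below 0, in glucose entry, glycolysis, the IGF system and the REST targets (median -0.43), while the 10 genes kept low lie between -0.27 and 0.33.

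Across the 12 lists, 151 genes were measured besides the 10, and 10 of them passed in IKK2-CA against control, all lower, 1 in Pdx-1+/- against control and none in IKK2-CA against Pdx-1+/- islets. Of all genes, 2.25%, 0.0953% and 0.0752% passed, in the same order. Among the lists is 1 with 9 measured genes that are likewise kept low in β-cells. None of the 9 passed in any comparison (limma). At an unadjusted p under 0.05, 2 were higher in IKK2-CA than in control islets, beside 6.2% of all genes. The mean was higher there for 8, beside 46.4% of all genes, with a median of 0.22 log2 and a range of -0.10 to 0.40. The highest values were 0.40 log2 (SE 0.13) for Lmo4, a LIM-domain transcription cofactor, 0.38 (SE 0.21) for Tgm2, a transglutaminase, 0.34 (SE 0.16) for Ndrg2 and 0.33 (SE 0.14) for the chemokine gene Cxcl12. Their adjusted p-values were 0.138 to 0.425 (limma). The macrophage, T-cell, endothelial, stellate and adipocyte markers had positive medians in this comparison as well, between 0.17 and 0.35 log2, and their part in these values was not tested.

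The 10 genes also differed in how steady they were within a genotype. The within-group SD was 0.83 log2 for Slc16a1, 0.61 for Mgst1, 0.46 for Igfbp4 and 0.39 for Pdgfra, followed by 0.28 for Oat, 0.26 for Ldha and 0.20 for Acot7. It was 0.16 for Rest, 0.14 for Smad3 and 0.10 for the Hk1 cluster 10414661. The median over all genes was 0.17, so that 7 of the 10 varied more than the median gene. For Slc16a1, Pdgfra, Mgst1, Oat, Igfbp4 and Acot7 the largest difference between group means was smaller than the within-group SD, whereas for Ldha, Smad3, Rest and the Hk1 cluster it was larger (0.33, 0.24, 0.28 and 0.13 log2). The other Hk1 cluster, 10369541, went the other way on both points. Its within-group SD was 0.25, above the median gene, and its largest difference between group means was 0.09 log2.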

How the data were processed

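The deposited table holds log2 signals per transcript cluster from 14 Mouse Gene 1.0 ST arrays, which the authors summarised with Affymetrix Expression Console, per the submitters' processing notes, using the robust multichip average (RMA). The sources used here do not give its version or settings, and base 2 was read from the range. RMA equalises the arrays' distributions, so shifts shared by all genes are removed. Of 35556 clusters, 21789 have 1 gene symbol in the array's gene table, 1621 several and 12146 were not listed; the last groups were left out of the tests. Of the 999 genes with several clusters the one with the highest mean was kept, giving 19938 genes.

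Genes were fitted with limma 3.58.1 in R 4.3.3 (lmFit and eBayes, 3 group means over all 14 arrays, 11 residual and 3.46 prior degrees of freedom) and called at an adjusted p (Benjamini-Hochberg over all genes) under 0.05. The script was tested on simulated data. SE and 95% intervals are the moderated ones. The number of arrays limits the precision. Replicate numbers recur across groups, but same-number arrays correlated at -0.39 to 0.36 after removal of group means, with few above 0.1, so they were not treated as pairs. The members, gene lists and tests were chosen with earlier results of these data known; the mesothelial list and the second Hk1 cluster were added after seeing the values. Named genes are the 10 members, the pathway genes past the threshold, a fixed set of partner genes (Ldhb, Slc16a3, Hk2, Pdgfrb, Pdgfa, Igf1, Igf2, Smad2, Smad4, Smad7, Tgfb1, Mgst2, Mgst3, Odc1, Rcor1, Snap25, Syp, Celsr3, Gjd2 and Unc13a) and the 3 genes nearest each member. Lmo4, Tgm2, Ndrg2, Cxcl12, Acot6, Arg1, Pdgfb, Pdgfc, Pdgfrl, Inhba and Tgfbr1 were named after their values were seen. Marker lists were averaged per array as log2 deviations. The fit was repeated after quantile normalization or centring on each array's median, with a robust eBayes trend, on only the arrays of a comparison, without the 30% of genes lowest in signal, on every cluster or the mean of a gene's clusters, with array weights, with a replicate block, and without each array in turn or the arrays with signal of other tissues. Promoter and microRNA sequences are from RefSeq tables for GRCm38.p6.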

Additional observations from a re-analysis of the deposited data

Results flagged for a closer look

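Dixon's test at the 5% level was run on 120 groups (40 genes in 3 groups) and found 9 arrays far from the rest of their group; chance gives about 1 in 20. Among the 10 genes, only the Hk1 cluster 10414661 was found, where Pdx-1+/- array 1 read 11.83 and the other 3 arrays 12.01 to 12.04. On IKK2-CA array 5, the array with adipocyte signal, Slc16a3 read 6.82 (others 6.33 to 6.38) and Ldhb 7.30 (others 6.89 to 6.99). On Pdx-1+/- array 4, the array with intestinal signal, Gjd2 read 8.60 (others 9.55 to 9.67), Unc13a 6.76 (others 7.70 to 7.80) and Pappa2 7.74 (others 8.42 to 8.50). Pappa2 was also low on control array 2, at 8.25 (others 8.95 to 9.19). Pdgfa read 8.99 on Pdx-1+/- array 1 (others 8.75 to 8.78), and Smad4 read 9.39 on Pdx-1+/- array 3 (others 9.60 to 9.63).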

How the results depend on the processing

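Over all alternatives, the count of the 10 genes past the threshold stayed at 0 in the 3 comparisons except with array weights, where 1 gene, Rest, passed for IKK2-CA against control (0.33 log2, adjusted p = 0.0243; 0.0243 to 0.452 over all alternatives). Leaving out each array in turn gave 0 throughout. With the replicate block, which the data did not show to be a true pairing, the count was 0 in each comparison as well, and the pathway genes past the threshold went from 10 to 4 in IKK2-CA against control, where array weights gave 23 and leaving out 1 array 5 to 15. Of 30 differences of single genes, 15 never changed sign (2 of these came to 0.00 at 2 decimals in 1 alternative each, Pdgfra in IKK2-CA and Acot7 in Pdx-1+/- against control), and Ldha, Smad3 and Rest kept theirs against control. The reversals were all among differences that had not passed, and their cause was not tested beyond which arrays were left out.

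For Pdx-1+/- against control, Igfbp4 (-0.00 log2) became 0.02 with median centring, 0.04 with quantile normalization, 0.31 with array weights, 0.29 without IKK2-CA array 5 and Pdx-1+/- array 4, and 0.14 without control array 3 as well. There, array weights gave 0.19 for Slc16a1, 0.08 for Pdgfra and 0.02 for Mgst1, and leaving out the 2 or 3 arrays gave 0.22 or 0.13 for Slc16a1 and 0.04 or 0.02 for Pdgfra. For IKK2-CA against Pdx-1+/-, Hk1 became -0.02 with quantile normalization and with the mean of its clusters, and -0.09 in its other cluster; array weights gave -0.28 for Slc16a1, -0.05 for Mgst1 and -0.12 for Igfbp4; the block gave 0.01 for Pdgfra; and both ways of leaving out arrays gave -0.49 for Slc16a1, -0.19 for Mgst1 and -0.22 for Igfbp4. For IKK2-CA against control, Mgst1 became -0.03 with array weights and -0.24 or -0.25 without the 2 or 3 arrays, which gave -0.00 for Oat and -0.08 for Igfbp4 without all 3, and Hk1 became -0.07 in its other cluster.

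Leaving out 1 array turned the sign within these ranges. Against control they were, for IKK2-CA, -0.01 to 0.16 (Oat), -0.03 to 0.29 (Igfbp4) and -0.24 to 0.26 (Mgst1), and for Pdx-1+/-, -0.18 to 0.29 (Igfbp4), -0.82 to 0.22 (Slc16a1) and -0.36 to 0.04 (Pdgfra). For IKK2-CA against Pdx-1+/- they were -0.01 to 0.06 (Hk1), -0.17 to 0.03 (Oat), -0.25 to 0.15 (Pdgfra), -0.03 to 0.15 (Acot7), -0.49 to 0.55 (Slc16a1), -0.16 to 0.31 (Igfbp4) and -0.03 to 0.50 (Mgst1). The signs of Slc16a1 and Pdgfra against control in Pdx-1+/- islets turned only without Pdx-1+/- array 4.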
